A study of Mus musculus with 12 samples.

Results

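Mitochondrial ribosomal proteins are taken here as the genes whose symbol is Mrpl or Mrps followed by a digit, which gave 71 of the 11035 genes in the count table. Of these 71 genes, 67 passed the filter on low counts and were tested, and Mrpl15, Mrpl19, Mrps14 and Mrps18b, with at most 7.72 CPM in any library, were not; CPM are UMI counts scaled to a common library size. The 71 comprise 45 proteins of the large subunit and 25 of the small subunit, plus Mrps36, which was named as a ribosomal protein but is now assigned to the 2-oxoglutarate dehydrogenase complex. Mrps18a and Mrps30 are counted with the large subunit, where structures place them. Mitoribosomal genes outside the table, such as Mrpl11, Mrpl17 and Dap3, were not analysed here.

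Expression was measured in 3T3-L1, a mouse fibroblast line that turns into fat-storing adipocytes under hormone treatment, in 12 libraries that form 4 groups of 3. All the 3T3-L1 cells carry the label WT for genotype. In the KO_CM group the cells were differentiated in media mixed 1:1, at every step, with medium conditioned by WEA breast cancer cells lacking p53, the tumour suppressor. In the WT_CM group the added medium came from WEA cells with p53 intact. The regular_diff group was differentiated without conditioned medium. Differentiation began 2 days after confluence, when 2 µM rosiglitazone, 0.5 mM IBMX, 1 µg/mL insulin and 1 µM dexamethasone were given for 2 days in 10% fetal bovine serum, followed by insulin for 2 days and then by maintenance medium. The preadipocyte group was left undifferentiated in medium with calf serum. The p53 knockout is thus a property of the cancer cells that supplied the medium, and whether those cells are 1 clone or several is not in the labels. No group received an equal mix with unconditioned medium, and replicates carry the numbers 1 to 3 in KO_CM and WT_CM but 4 to 6 in regular_diff and preadipocyte. In any comparison of a conditioned-medium group with regular_diff or preadipocyte, the cancer cells' products, the dilution of the inducers and a possible difference between these numbered sets cannot be told apart. The labels do not say that the 3 libraries of a group are separate cultures, so the p-values measure the spread between these libraries, which may be technical.

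The mitochondrial ribosome translates the few messenger RNAs of the mitochondrial genome, which encode core subunits of the respiratory chain and ATP synthase. Its small subunit reads the messenger and its large subunit joins the amino acids. All of its proteins are encoded in the nucleus, made in the cytosol and imported, and many have no counterpart in bacterial ribosomes. Mitochondria enlarge and multiply as 3T3-L1 cells become adipocytes, where they supply energy and carbon for fat synthesis.

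MARS-seq counts unique molecular identifiers (UMIs) at the 3′ ends of transcripts, so values are not divided by transcript length and are compared here between libraries for each gene. Total counts per library were 669007 to 1132099 in KO_CM, 1758814 to 2025317 in WT_CM, 1387854 to 1801316 in regular_diff and 1458452 to 1836626 in preadipocyte libraries. The median count per member was 62 to 98 in KO_CM libraries and 126 to 217 in the other 9, so values in KO_CM carry the most counting error. The labels were checked against markers. The summed level of 10 adipocyte genes was 9559 to 11800 CPM in KO_CM, 35350 to 36240 in WT_CM, 39350 to 42670 in regular_diff and 229 to 745 in preadipocyte libraries. The highest preadipocyte value was that of replicate 5, which had 129 counts of Adipoq, against 13 and 11 in replicates 4 and 6. That library and KO_CM replicate 1 also had unusually low counts of some members, so counts of changed members are given with and without both. Transcripts of the mitochondrial genome itself were not analysed here.

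Summed over the 71 genes, mitoribosomal protein mRNA was at 7426 ± 297 CPM in KO_CM, 9807 ± 196 in WT_CM, 11178 ± 116 in regular_diff and 7019 ± 192 in preadipocyte libraries (SD, n = 3 each). The ranges of KO_CM and preadipocyte libraries, 7120 to 7713 and 6872 to 7236 CPM, overlapped, and the other groups stood apart from them and from each other. As a share of all UMIs, the members held 0.726%, 0.755% and 0.760% in KO_CM, 0.933%, 0.961% and 0.945% in WT_CM, 1.072%, 1.058% and 1.071% in regular_diff and 0.756%, 0.756% and 0.727% in preadipocyte libraries. These are bulk samples, in which fewer cells of a type and less RNA per cell cannot be told apart. The adipocyte marker sum given above had the order of the mitoribosomal group means, but its KO_CM libraries were far above its preadipocyte libraries, without overlap. The sum of 8 preadipocyte and fibroblast markers was 8472 to 9273 CPM in KO_CM, 4785 to 5318 in WT_CM, 3074 to 3340 in regular_diff and 9063 to 9828 in preadipocyte libraries. The part of these cell states in the mitoribosomal levels was not tested.

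Both subunits, and within each the proteins with and without a bacterial counterpart, had the same order of group means. For proteins with a bacterial counterpart the KO_CM and preadipocyte libraries overlapped. In the large subunit they lay at 2564 to 2990 CPM in KO_CM and 2585 to 2689 in preadipocyte libraries. In the small subunit the ranges were 1989 to 2115 and 1802 to 2094 CPM. Large-subunit mRNA summed to 4746 ± 231 CPM in KO_CM, 6291 ± 112 in WT_CM, 7252 ± 65.7 in regular_diff and 4484 ± 57.7 in preadipocyte libraries (SD, n = 3 each). Small-subunit mRNA summed to 2674 ± 64.9 CPM in KO_CM, 3504 ± 107 in WT_CM, 3916 ± 54.2 in regular_diff and 2529 ± 159 in preadipocyte libraries. The 9 small-subunit proteins found only in mitochondria summed to 623 ± 8.40 CPM in KO_CM, 972 ± 9.86 in WT_CM, 1045 ± 22.4 in regular_diff and 567 ± 34.0 in preadipocyte libraries. Gene by gene, the means ran from regular_diff through WT_CM and KO_CM down to preadipocyte in 32 of the 71 members, and with KO_CM lowest and preadipocyte next in another 17. The mean was highest in regular_diff for 53 members and in WT_CM for 15, and the KO_CM mean was below the WT_CM mean in 66 of the 71.

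**Figure D1:**
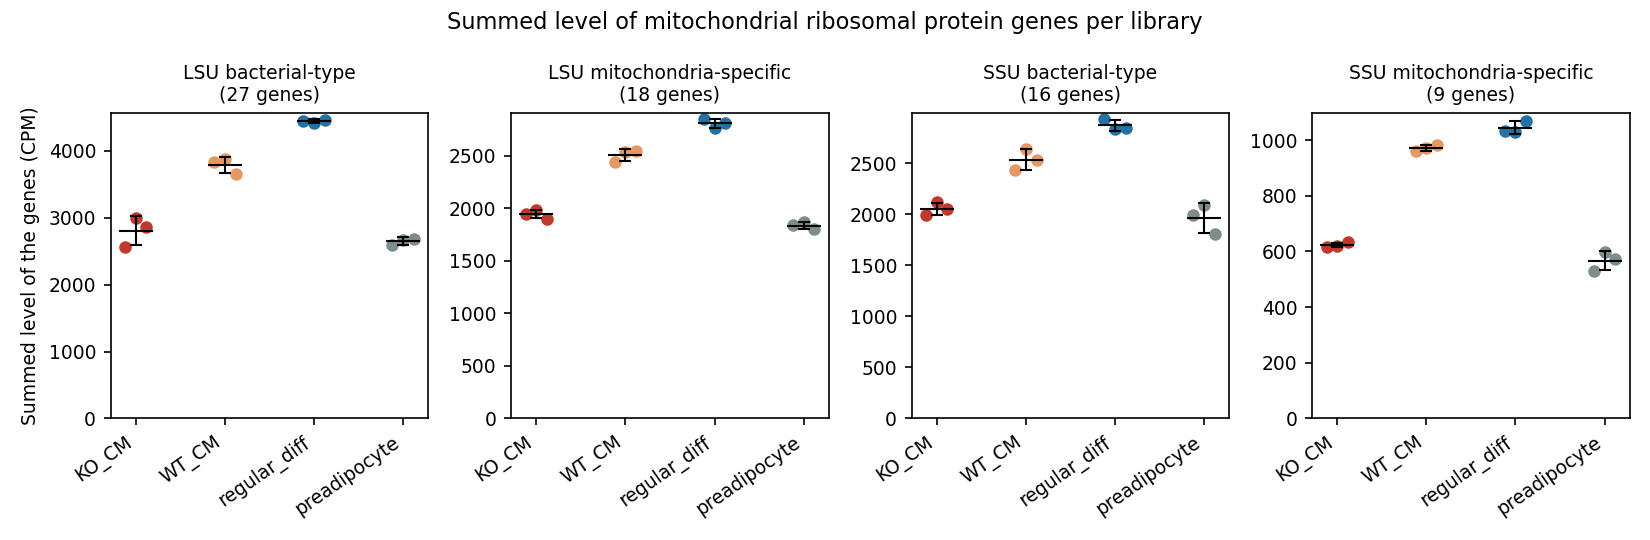
Summed CPM of the mitoribosomal protein genes in each library (points) with the mean and SD of each group (bars), in 4 panels by subunit and by whether the protein has a bacterial counterpart; each axis starts at 0. In every panel regular_diff has the highest mean and preadipocyte the lowest, with WT_CM second. KO_CM and preadipocyte libraries overlap in both panels of proteins with a bacterial counterpart. For the small-subunit proteins found only in mitochondria the means are 623 in KO_CM, 972 in WT_CM, 1045 in regular_diff and 567 CPM in preadipocyte libraries.

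The first comparison, regular_diff against preadipocyte, asks how these genes change when cells differentiate without conditioned medium. As in every comparison with preadipocyte, the groups also differ in serum and inducers, whose part cannot be told apart from differentiation. Of the 67 tested members 48 rose and 0 fell in regular_diff (edgeR's quasi-likelihood test on all 9519 genes that passed the filter, Benjamini-Hochberg adjusted p under 0.05), which is 71.6% of the members, against 24.8% of all tested genes called higher and 26.4% called lower. At an unadjusted p under 0.05 the counts were 52 higher and 1 lower, and the authors' deposited table has 46 members higher and 0 lower. The median log2 fold change was 0.73 over the members and -0.06 over all genes tested. In 54 members the 3 regular_diff libraries all lay above the 3 preadipocyte libraries, against 27.9% of all genes. The rises called were 1.27-fold to 3.43-fold, and 11 were at least 2-fold: Mrpl9, Mrpl12, Mrpl16, Mrpl20, Mrpl34, Mrpl38, Mrpl51, Mrpl55, Mrps30, Mrps34 and Mrps35. Beside these 11 of 67 members, 2480 of all 9519 genes were called with a change of at least 2-fold in either direction. The large subunit had 31 of its 43 tested members called higher, with a median of 0.73, and the small subunit 17 of 23, with a median of 0.70.

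The largest rise was that of Mrpl12, the protein of the flexible stalk that contacts translation factors, encoded on chr11 at 120484613 to 120489065 (GENCODE vM21, GRCm38, plus strand). Mrpl12 had 412, 404 and 411 CPM in regular_diff libraries, against 104, 145 and 109 CPM in preadipocyte libraries. Every regular_diff library was far above every preadipocyte library, and preadipocyte replicate 5 was the highest of its group. The log2 fold change was 1.78 ± 0.12 (SE), or 3.43-fold (Benjamini-Hochberg adjusted p = 4.5e-13, edgeR's quasi-likelihood test). Mrpl51, a large-subunit protein with no bacterial counterpart (chr6, 125191801 to 125196269, plus strand), had 286, 252 and 262 CPM in regular_diff libraries, against 107, 74.6 and 92.1 CPM in preadipocyte libraries. Here preadipocyte replicate 5 was the lowest of its group, and the groups again did not overlap, with a log2 fold change of 1.54 ± 0.12 (adjusted p = 2.49e-11, edgeR's quasi-likelihood test). Mrps34, a small-subunit protein needed for the stability of its ribosomal RNA (chr17, 24895116 to 24897502, plus strand), had 197, 217 and 219 CPM in regular_diff libraries, against 75.6, 90.2 and 89.5 CPM in preadipocyte libraries. Its log2 fold change was 1.32 ± 0.12 (adjusted p = 4.59e-10, edgeR's quasi-likelihood test) and the groups did not overlap.

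The next largest rises were smaller. Mrpl55 (log2 fold change 1.12 ± 0.18), Mrpl38 (1.10 ± 0.12), which resembles phosphatidylethanolamine-binding proteins, and Mrpl16 (1.09 ± 0.15), counterpart of a bacterial large-subunit protein, had adjusted p-values of 5.79e-06, 1.65e-08 and 4.85e-07 by edgeR's quasi-likelihood test. Mrpl10, to which the stalk protein Mrpl12 binds, rose with a log2 fold change of 0.73 ± 0.13 (adjusted p = 2.64e-05, edgeR's quasi-likelihood test). Mrps12, which lies at the decoding site, had 82.6, 88.0 and 65.0 CPM in regular_diff libraries, against 43.5, 46.6 and 42.2 CPM in preadipocyte libraries. Each regular_diff library was above each preadipocyte library, with a log2 fold change of 0.82 ± 0.16 (adjusted p = 6.83e-05, edgeR's quasi-likelihood test). Mrpl45, which holds the ribosome to the inner membrane at the tunnel exit, had 127, 124 and 117 CPM in regular_diff libraries, against 67.6, 80.8 and 59.7 CPM in preadipocyte libraries. Its groups did not overlap either, and the log2 fold change was 0.82 ± 0.13 (adjusted p = 7.27e-06, edgeR's quasi-likelihood test). Mrpl44, related to ribonuclease III, rose by 0.87 ± 0.16, Mrps30 by 1.04 ± 0.12 and Mrps18a by 0.98 ± 0.12 on the log2 scale (adjusted p = 3.13e-05, 2.18e-08 and 4.03e-08, edgeR's quasi-likelihood test).

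A minority of members did not pass the test. Mrpl58, a peptidyl-tRNA hydrolase that frees stalled ribosomes, had a log2 fold change of 0.22 ± 0.12 (adjusted p = 0.118), Mrps18c one of -0.08 ± 0.23 (adjusted p = 0.789) and Mrps27, which carries RNA-binding pentatricopeptide repeats, one of 0.46 ± 0.21 (adjusted p = 0.0675, each by edgeR's quasi-likelihood test). Mrpl52, a large-subunit protein with no bacterial counterpart (chr14, 54426909 to 54429756, plus strand), was picked after its values were seen, as the member whose libraries lay lower after differentiation. Mrpl52 had 286, 326 and 288 CPM in regular_diff libraries, against 334, 404 and 326 CPM in preadipocyte libraries. All 3 regular_diff libraries were below all 3 preadipocyte libraries, but the log2 fold change of -0.24 ± 0.12 did not pass (adjusted p = 0.0822, edgeR's quasi-likelihood test). Of all 67 members 16 passed in none of the 6 comparisons made between the groups.

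**Figure D2:**
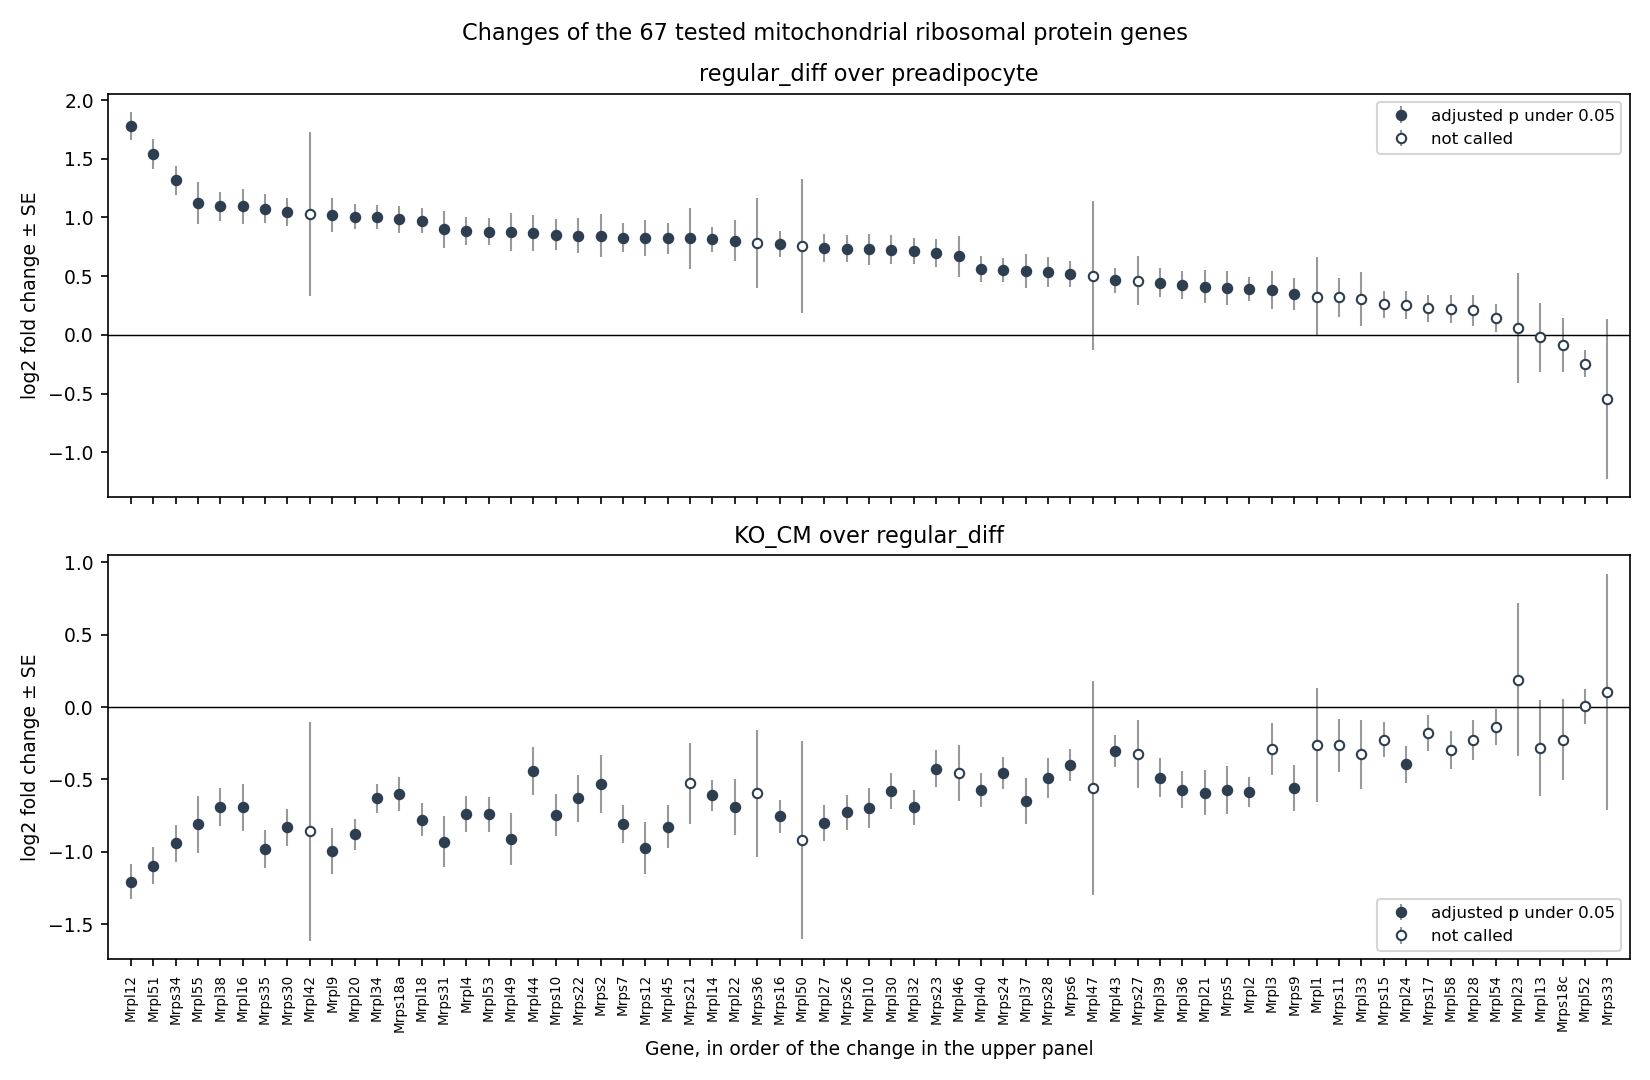
Log2 fold change with its SE for each of the 67 tested members, regular_diff over preadipocyte above and KO_CM over regular_diff below, in the order of the upper panel; filled points have an adjusted p under 0.05 (edgeR). The 48 filled points above all lie on the positive side, up to 1.78 for Mrpl12, and the 46 filled points below all lie on the negative side, down to -1.21 for Mrpl12.

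Stretches of DNA before the start sites of 4 members are shown because they stand for the range of responses: Mrpl12 and Mrpl51 with the largest rises in regular_diff, Mrpl9 with the largest fall in WT_CM, and Mrpl52, which passed in no comparison of all 12 libraries. Each is the 250 bases that end just before the RefSeq start site on GRCm38.p6, plus strand, at chr11:120484387-120484636, chr6:125191950-125192199, chr3:94443086-94443335 and chr14:54426659-54426908 in that order. Capitals mark a match to a motif of NRF1 or of ETS factors such as GABPA, regulators known for acting on nuclear genes of mitochondria.
Mrpl12: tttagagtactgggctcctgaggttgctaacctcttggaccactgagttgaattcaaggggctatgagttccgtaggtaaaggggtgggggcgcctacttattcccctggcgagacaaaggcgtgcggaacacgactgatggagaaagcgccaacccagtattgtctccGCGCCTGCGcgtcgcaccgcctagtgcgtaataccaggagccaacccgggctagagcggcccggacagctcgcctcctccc
Mrpl51: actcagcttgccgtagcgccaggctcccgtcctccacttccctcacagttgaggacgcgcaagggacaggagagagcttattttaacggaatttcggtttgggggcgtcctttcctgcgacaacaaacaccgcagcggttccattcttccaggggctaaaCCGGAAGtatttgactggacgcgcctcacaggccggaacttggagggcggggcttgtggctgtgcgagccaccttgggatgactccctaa
Mrpl9: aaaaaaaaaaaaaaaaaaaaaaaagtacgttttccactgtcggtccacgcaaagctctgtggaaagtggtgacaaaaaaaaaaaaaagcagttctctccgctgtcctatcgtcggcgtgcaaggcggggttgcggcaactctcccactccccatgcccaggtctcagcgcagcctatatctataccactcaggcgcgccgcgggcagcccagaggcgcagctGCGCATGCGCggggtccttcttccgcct
Mrpl52: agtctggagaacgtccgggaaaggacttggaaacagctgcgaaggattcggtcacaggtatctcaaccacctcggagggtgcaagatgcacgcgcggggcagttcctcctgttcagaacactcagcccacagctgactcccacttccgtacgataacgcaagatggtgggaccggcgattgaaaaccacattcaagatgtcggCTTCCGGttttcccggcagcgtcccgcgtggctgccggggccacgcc
The capitals begin 81 bases before the start in Mrpl12 and 28 in Mrpl9 (NRF1 motif), and 90 in Mrpl51 and 47 in Mrpl52 (ETS motif, on the reverse strand in Mrpl52); in Mrpl9 the NRF1 motif is read on both strands. The RefSeq start lies inside the gene as GENCODE draws it for Mrpl12, Mrpl51 and Mrpl9, and at its first base for Mrpl52. A match was found here in members that rose strongly and in one that did not pass the test. The promoters of Mrpl16 and Mrpl55, also among the largest rises, had neither motif.

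RefSeq gave 65 promoters for 62 of the 71 members, and both strands of the 250 bases were searched for exact strings. GCGCNTGCG, the core of the NRF1 motif, was in 20% of member promoters (13 of 65), against 11.6% of the promoters of all tested genes and 5.19% of all 32851 promoters. The ETS motif CCGGAAG was in 24.6%, against 14.5% and 6.91%. The E-box CACGTG was in 10.8% (7 of 65), against 8.61% and 6.02%. Those 7 promoters belong to 5 of the 62 member genes, since overlapping promoters of Mrpl2 were counted separately. The YY1 motif AAGATGGCG was in 3.08%, against 1.28% and 0.61%, and the ESRRA motif TCAAGGTCA in 0% (0 of 65), against 0.23% and 0.39%. None of these strings contains another, although matches of the ETS and YY1 strings can overlap by their shared AAG. A match is a string of letters and no sign of binding, and these shares were not tested. A second feature of position was also more frequent among members: 30 of the 71, or 42.3%, have the start of another protein-coding gene within 1000 bases on the opposite strand, against 1655 of 9216 tested protein-coding genes, or 18.0%, a difference that was not tested. Of the tested members with such a neighbour 22 of 29 rose in regular_diff, against 26 of 38 without one.

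KO_CM against regular_diff compares differentiation in medium of p53-knockout cancer cells with differentiation without conditioned medium. Of the 67 members 46 fell and 0 rose in KO_CM (edgeR's quasi-likelihood test, adjusted p under 0.05), or 68.7%, against 17.3% of all genes called lower and 17.2% called higher. The unadjusted counts were 48 lower and 0 higher, and the authors' deposited table has 43 lower and 0 higher. The median log2 fold change was -0.59 over the members and -0.003 over all genes. In 50 members all KO_CM libraries lay below all regular_diff libraries, against 23.2% of all genes. By subunit, 30 of 43 large-subunit and 16 of 23 small-subunit members fell, with medians of -0.61 and -0.53.

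Mrpl12 again led the members, with 173, 161 and 201 CPM in KO_CM libraries, against 412, 404 and 411 CPM in regular_diff libraries. The highest KO_CM library was far below the lowest regular_diff library. The log2 fold change was -1.21 ± 0.12 (adjusted p = 4.21e-09, edgeR's quasi-likelihood test). Mrpl51 had 121, 115 and 141 CPM in KO_CM libraries, against 286, 252 and 262 CPM in regular_diff libraries. All its KO_CM libraries were below its regular_diff libraries, with a log2 fold change of -1.10 ± 0.13 (adjusted p = 7.65e-08, edgeR's quasi-likelihood test). These 2 were the members that fell at least 2-fold. Of all 9519 tested genes, 1557 were called with a change of at least 2-fold in either direction. Mrpl9, counterpart of a bacterial large-subunit protein (chr3, 94443318 to 94451130, plus strand), had 40.6, 55.1 and 52.7 CPM in KO_CM libraries, against 101, 101 and 96.4 CPM in regular_diff libraries. Its libraries did not overlap, with a log2 fold change of -0.99 ± 0.16 (adjusted p = 1.27e-05, edgeR's quasi-likelihood test).

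A trio of small-subunit members followed at nearly the same size. Mrps35, found in mitochondria and not in bacteria (chr6, 147042764 to 147073991, plus strand), had 121, 125 and 104 CPM in KO_CM libraries, against 222, 251 and 221 CPM in regular_diff libraries, a log2 fold change of -0.98 ± 0.13 (adjusted p = 5.75e-07, edgeR's quasi-likelihood test). Mrps12 had 43.2, 36.1 and 41.0 CPM in KO_CM libraries, against 82.6, 88.0 and 65.0 CPM in regular_diff libraries, a log2 fold change of -0.98 ± 0.18 (adjusted p = 8.47e-05, edgeR's quasi-likelihood test). Mrps34 had 121, 101 and 109.9 CPM in KO_CM libraries, against 197, 217 and 219 CPM in regular_diff libraries, a log2 fold change of -0.94 ± 0.13 (adjusted p = 9.75e-07, edgeR's quasi-likelihood test). In each of them every KO_CM library was below every regular_diff library. The stalk-base protein Mrpl10, Mrpl45, Mrps30 and Mrps18a fell, with log2 fold changes of -0.70, -0.83, -0.83 and -0.60 (adjusted p = 0.00018, 5.27e-05, 7.92e-06 and 0.000193, edgeR's quasi-likelihood test). Mrpl44 passed barely, with a log2 fold change of -0.44 ± 0.17 (adjusted p = 0.0417, edgeR's quasi-likelihood test), and lost the call in 16 alternative analyses, with an adjusted p of up to 0.318. Mrpl58, Mrps27 and Mrps36 did not pass, with log2 fold changes of -0.30 ± 0.13, -0.33 ± 0.24 and -0.60 ± 0.44.

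KO_CM against WT_CM compares media that differ in the p53 state of the cancer cells, and both groups carry the replicate numbers 1 to 3. Of the 67 members 37 fell and 0 rose in KO_CM (edgeR's quasi-likelihood test, adjusted p under 0.05), or 55.2%, against 13.9% of all genes called lower and 13.6% called higher. The unadjusted counts were 46 lower and 0 higher, and the authors' deposited table has 28 lower and 0 higher. The median log2 fold change was -0.44 over the members and -0.01 over all genes. A change of at least 2-fold was called in 0 of the 67 members, against 1054 of all 9519 genes in either direction. In 45 members all KO_CM libraries lay below all WT_CM libraries, against 20.4% of all genes. By subunit, 26 of 43 large-subunit and 11 of 23 small-subunit members fell. Without WT_CM replicate 2 the count was 24 lower, with 1044 of all genes lower, against 1327 with all 12 libraries. The adipocyte marker sum, at most 11800 CPM in KO_CM and at least 35350 CPM in WT_CM libraries, and the total counts, all lower in KO_CM, moved with this comparison, and their part in it was not tested.

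In this pair of groups Mrpl12 had 173, 161 and 201 CPM in KO_CM libraries, against 351, 313 and 326 CPM in WT_CM libraries. The lowest WT_CM library was well above the highest KO_CM library, and the log2 fold change was -0.90 ± 0.12 (adjusted p = 1.41e-06, edgeR's quasi-likelihood test). Mrps34 had 121, 101 and 109.9 CPM in KO_CM libraries, against 221, 172 and 195 CPM in WT_CM libraries, without overlap, and a log2 fold change of -0.83 ± 0.13 (adjusted p = 1.02e-05, edgeR's quasi-likelihood test). Mrps10, counterpart of a bacterial small-subunit protein, had 57.7, 62.3 and 52.7 CPM in KO_CM libraries, against 104, 88.5 and 109 CPM in WT_CM libraries. The KO_CM libraries lay close together and below every WT_CM library, with a log2 fold change of -0.80 ± 0.14 (adjusted p = 9.47e-05, edgeR's quasi-likelihood test).

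Mrps35 had 121, 125 and 104 CPM in KO_CM libraries, against 188, 206 and 211 CPM in WT_CM libraries, a log2 fold change of -0.78 ± 0.13 (adjusted p = 2.77e-05, edgeR's quasi-likelihood test). Mrpl22, which lines the exit tunnel, had 39.3, 52.4 and 36.6 CPM in KO_CM libraries, against 69.1, 85.5 and 65.1 CPM in WT_CM libraries, a log2 fold change of -0.74 ± 0.19 (adjusted p = 0.00398, edgeR's quasi-likelihood test). The last 500 bases of Mrpl22 are shared for 61.7% with Gm6997, so its counts are uncertain. Mrps31, a small-subunit protein found only in mitochondria, had 34.1, 52.4 and 46.9 CPM in KO_CM libraries, against 74.7, 85.5 and 65.1 CPM in WT_CM libraries, a log2 fold change of -0.73 ± 0.18 (adjusted p = 0.00244, edgeR's quasi-likelihood test). None of these 3 genes had a KO_CM library that reached a WT_CM library.

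Of the other members singled out for their role, Mrpl10, Mrpl45, Mrps30 and Mrps12 fell, with log2 fold changes of -0.47, -0.54, -0.50 and -0.71 (adjusted p = 0.0101, 0.0066, 0.00438 and 0.00386, edgeR's quasi-likelihood test). Each of the first 3 calls was lost when a library was left out: that of Mrpl10 without WT_CM replicate 1 or KO_CM replicate 3 (adjusted p up to 0.115), and those of Mrpl45 and Mrps30 without KO_CM replicate 2 (up to 0.0622 and 0.0638). Mrpl44 had a log2 fold change of -0.46 ± 0.17 (adjusted p = 0.0375, edgeR's quasi-likelihood test) and lost its call in 16 alternative analyses, with an adjusted p of up to 0.3. Mrps18a, at -0.26 ± 0.12, and Mrpl58, at -0.12 ± 0.13, did not pass.

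**Figure D3:**
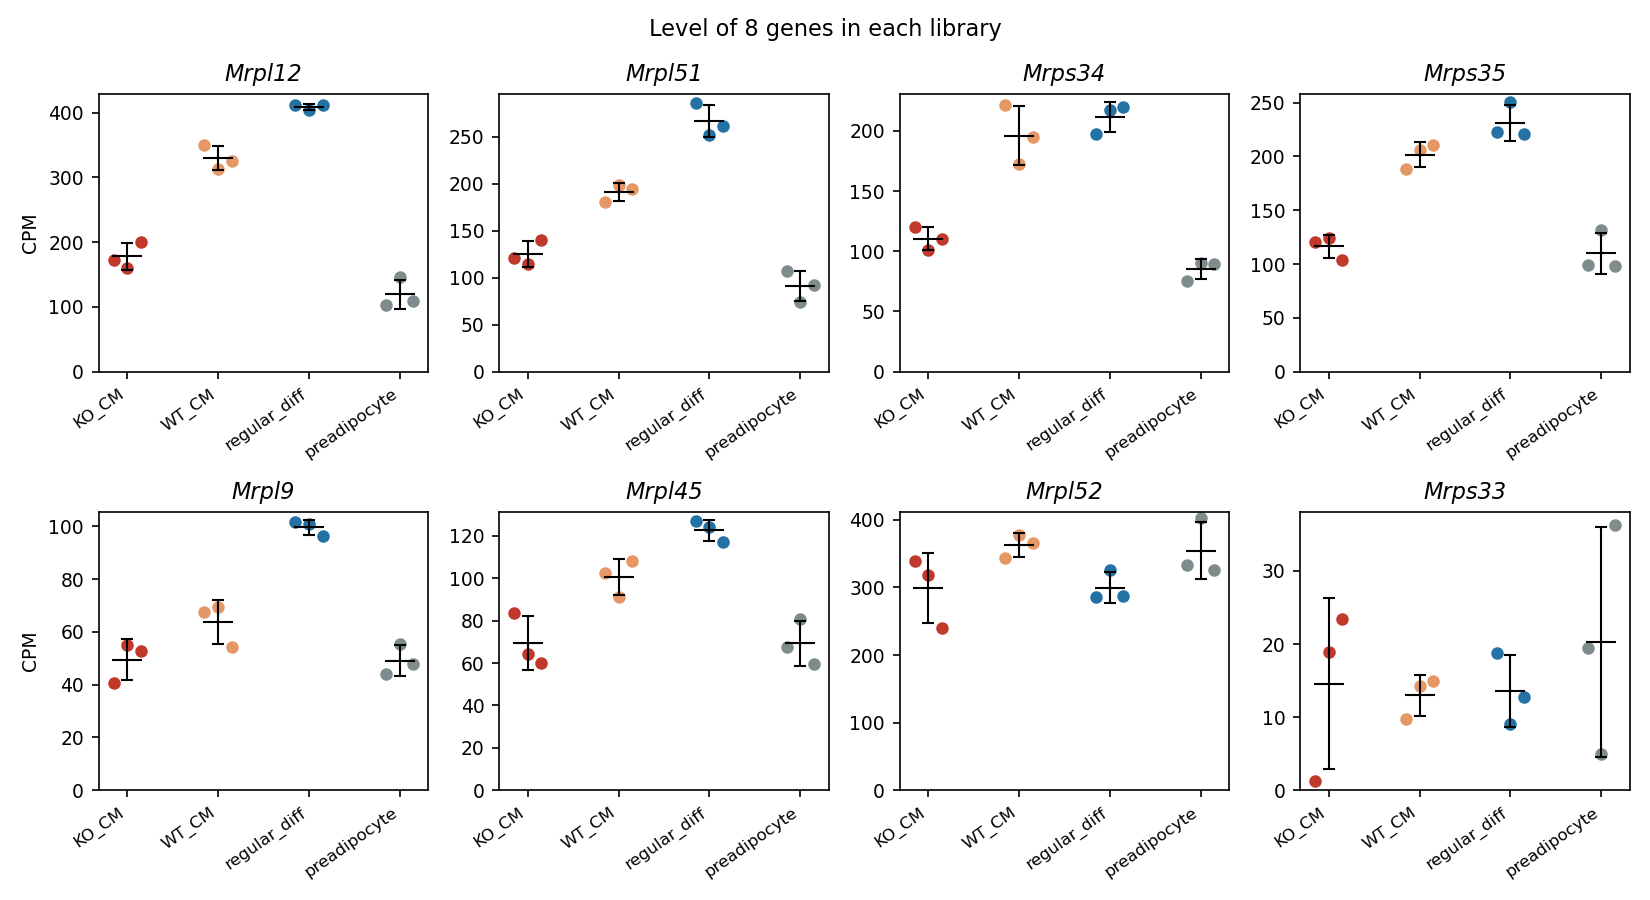
CPM of 8 members in each library (points) with the mean and SD of each group (bars), groups ordered KO_CM, WT_CM, regular_diff and preadipocyte; each axis starts at 0. Mrpl12 is at 161 to 201 CPM in KO_CM, 313 to 351 in WT_CM, 404 to 412 in regular_diff and 104 to 145 in preadipocyte libraries, while Mrpl52 shows no such order and Mrps33 is near 0 in KO_CM replicate 1 and low in preadipocyte replicate 5.

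WT_CM against regular_diff compares medium of p53-intact cancer cells with no conditioned medium. Here 7 of the 67 members fell and 0 rose in WT_CM (edgeR's quasi-likelihood test, adjusted p under 0.05), or 10.4%, against 4.18% of all genes called lower and 5.73% called higher. The unadjusted counts were 16 lower and 1 higher, and the authors' deposited table has 5 lower and 0 higher. The median log2 fold change was -0.16 over the members and -0.01 over all genes, and in 25 members all WT_CM libraries lay below all regular_diff libraries, against 14.8% of all genes. The count of falls depended on single libraries: it was 2 without WT_CM replicate 1, 3 without WT_CM replicate 3, regular_diff replicate 4 or regular_diff replicate 6, and 12 without preadipocyte replicate 5, a library outside the comparison. Over all genes the number called lower moved too. It was 279, 236, 228, 251 and 531 in these fits in that order, against 398 with all 12 libraries. The cause of these changes was not tested.

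Mrpl9 had the largest of these falls, with 67.6, 69.5 and 54.2 CPM in WT_CM libraries, against 101, 101 and 96.4 CPM in regular_diff libraries. No WT_CM library reached the regular_diff range, and the log2 fold change was -0.64 ± 0.14 (adjusted p = 0.00209, edgeR's quasi-likelihood test). After thinning all libraries to the smallest total its adjusted p was 0.0953. Mrpl51 had 181, 198 and 195 CPM in WT_CM libraries, against 286, 252 and 262 CPM in regular_diff libraries, a log2 fold change of -0.48 ± 0.12 (adjusted p = 0.00713, edgeR's quasi-likelihood test), with an adjusted p of up to 0.0913 over the alternatives. Mrps16, counterpart of a bacterial small-subunit protein, had 247, 253 and 232 CPM in WT_CM libraries, against 324, 308 and 345 CPM in regular_diff libraries, a log2 fold change of -0.42 ± 0.11 (adjusted p = 0.00946, edgeR's quasi-likelihood test), with an adjusted p of up to 0.0698 over the alternatives. In both genes the groups did not overlap.

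Mrpl27, a counterpart of a bacterial protein near the site of peptide bond formation, Mrpl4 and Mrpl53 fell, with log2 fold changes of -0.40, -0.39 and -0.38 (adjusted p = 0.0221, 0.0282 and 0.0267, edgeR's quasi-likelihood test). The alternatives took these adjusted p-values to at most 0.139, 0.116 and 0.153, and all the stretches searched in the last 500 bases of Mrpl53 also occur in Gm42688, so its counts are uncertain. Of the stretches of Mrpl27 31.9% occur in other genes, so its counts are uncertain too. Mrpl12 had 351, 313 and 326 CPM in WT_CM libraries, against 412, 404 and 411 CPM in regular_diff libraries. The WT_CM libraries were all lower, but the log2 fold change of -0.31 ± 0.11 did not pass (adjusted p = 0.0865, edgeR's quasi-likelihood test). Mrps34, Mrps35 and Mrps10 had log2 fold changes of -0.11 ± 0.12, -0.20 ± 0.12 and 0.05 ± 0.12 and did not pass either.

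Against preadipocytes the conditioned-medium groups gave different counts. These comparisons share their preadipocyte libraries with the first one, so their values are set side by side and no overlap is drawn from them. In WT_CM 45 of the 67 members rose and 0 fell (edgeR's quasi-likelihood test, adjusted p under 0.05), against 23.1% of all genes called higher and 24.1% called lower, with a median log2 fold change of 0.51 over the members. In KO_CM 6 rose and 0 fell (9 and 0 at an unadjusted p under 0.05), or 8.96% of the members, against 12.1% of all genes called higher and 8.4% called lower, with a median of 0.06 that became -0.028 when libraries were scaled by their totals alone. The share of members called in KO_CM was thus below that of all genes. Without KO_CM replicate 3 the count was 3, with 1115 of all genes higher, against 1156 with all 12 libraries. The KO_CM mean was below the preadipocyte mean in 25 of the 71 members and between the preadipocyte and regular_diff means in 45.

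The 6 members called in KO_CM against preadipocyte were Mrpl12 (0.57 ± 0.13), Mrpl51 (0.44 ± 0.14), Mrpl38 (0.40 ± 0.14), Mrps18a (0.38 ± 0.12), Mrps34 (0.37 ± 0.13) and Mrpl34 (0.37 ± 0.10), as log2 fold changes with their SE. Their adjusted p-values were 0.0012, 0.019, 0.0351, 0.0238, 0.0479 and 0.009 in that order (edgeR's quasi-likelihood test). The call of Mrpl12 held in every alternative analysis, and each of the other 5 was lost in at least 1, with adjusted p-values of up to 0.391 for Mrpl51 and 0.143 for Mrpl34. Mrpl12 had 173, 161 and 201 CPM in KO_CM libraries, against 104, 145 and 109 CPM in preadipocyte libraries. All KO_CM libraries were above all preadipocyte libraries, although the gap between them was narrow. In WT_CM, Mrps27 and Mrps36 passed against preadipocyte, with log2 fold changes of 0.65 ± 0.20 and 1.09 ± 0.36 (adjusted p = 0.00899 and 0.0133, edgeR's quasi-likelihood test). The call of Mrps36 was lost without WT_CM replicate 1, with an adjusted p of 0.0534, and that of Mrps27 was lost in 3 alternatives, with an adjusted p of up to 0.0823.

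Other genes of mitochondrial translation were described by lists. To set beside their counts, 24.8% of all genes were called higher and 26.4% lower in regular_diff against preadipocyte. In KO_CM against regular_diff these shares were 17.2% and 17.3%. Of 4 mitoribosomal proteins that carry other symbols, 1 rose in regular_diff against preadipocyte and 2 fell in KO_CM against regular_diff. Aurkaip1 rose in regular_diff against preadipocyte and fell in KO_CM against regular_diff, with log2 fold changes of 0.78 ± 0.12 and -0.72 ± 0.13 (adjusted p = 6.75e-06 and 8.73e-05, edgeR's quasi-likelihood test). Chchd1, another of these, fell in KO_CM against regular_diff, with a log2 fold change of -0.58 ± 0.16 (adjusted p = 0.00536, edgeR's quasi-likelihood test). Of 24 tested genes of mitoribosome assembly, 13 rose and 0 fell in regular_diff against preadipocyte, and 7 fell and 0 rose in KO_CM against regular_diff, with medians of 0.46 and -0.39; with library size alone 10 rose and 1 fell in the first of these and 4 fell in the second. Among them Rpusd3, a pseudouridine synthase of mitochondrial RNA, had log2 fold changes of 2.07 ± 0.19 and -1.11 ± 0.19 in these comparisons, and Malsu1, an assembly factor of the large subunit, 0.95 ± 0.12 and -0.70 ± 0.13 (adjusted p between 2.97e-10 and 6.46e-05, edgeR's quasi-likelihood test). Mpv17l2, which binds the mitoribosome, was the 1 assembly gene that fell in WT_CM against regular_diff, with a log2 fold change of -0.68 ± 0.12 (adjusted p = 0.000342, edgeR's quasi-likelihood test).

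Of 11 tested translation factors 9 rose in regular_diff against preadipocyte and 4 fell in KO_CM against regular_diff, with none the other way and medians of 0.79 and -0.63; with library size alone 5 rose. Gfm2, which takes part in recycling mitochondrial ribosomes, had log2 fold changes of 1.45 ± 0.19 and -1.37 ± 0.22 (adjusted p = 2.58e-07 and 1.07e-05, edgeR's quasi-likelihood test). Of 16 mitochondrial tRNA synthetases and partners 9 rose and 5 fell in these comparisons, with medians of 0.73 and -0.53, among them Tars2, which charges threonine tRNA, with 1.20 ± 0.19 and -0.98 ± 0.22, and Cars2, which charges cysteine tRNA, with 0.72 ± 0.19 and -1.19 ± 0.23 (adjusted p between 7.36e-06 and 0.00194, edgeR's quasi-likelihood test). Of 9 genes of mitochondrial DNA upkeep and transcription 6 rose in regular_diff against preadipocyte, and Tefm, a transcription elongation factor, was the 1 that fell in KO_CM against regular_diff, with a log2 fold change of -0.91 ± 0.23 (adjusted p = 0.00213, edgeR's quasi-likelihood test). That 1 of 9 is 11.1%, below the 17.3% of all genes called lower there.

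Regulators of mitochondrial biogenesis moved in both directions. Of 9 tested, 3 rose and 3 fell in regular_diff against preadipocyte, and 2 rose and 3 fell in KO_CM against regular_diff. The shares are 33.3% and 33.3% in the first, against 24.8% and 26.4% of all genes. In the second they are 22.2% and 33.3%, against 17.2% and 17.3%. The coactivator Ppargc1b had log2 fold changes of 4.12 ± 0.55 in regular_diff against preadipocyte and -1.53 ± 0.45 in KO_CM against regular_diff, the second of which had an adjusted p of 0.0505 without regular_diff replicate 4, and the nuclear receptor Esrra 1.41 ± 0.13 and -1.04 ± 0.14 (adjusted p of 2.98e-07, 0.0089, 6.44e-10 and 1.22e-06 in that order, edgeR's quasi-likelihood test). Pprc1, a coactivator related to Ppargc1b, had changes of the opposite sign, with -1.39 ± 0.22 and 1.21 ± 0.25 (adjusted p = 4.55e-06 and 0.000298, edgeR's quasi-likelihood test).

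In KO_CM against WT_CM the share called lower was 16.7% of the assembly genes, 18.2% of the translation factors, 25% of the tRNA synthetases and 11.1% of the genes of mitochondrial DNA and transcription, against 13.9% of all genes. Of the 4 other-symbol proteins 2 fell there, and of the 9 regulators 2. The calls of Chchd1, Esrra and Tefm, which are among these counts, were lost in 16, 14 and 20 alternatives, with adjusted p-values of up to 0.272, 0.194 and 0.181 (edgeR's quasi-likelihood test in all but the DESeq2 alternative). In WT_CM against regular_diff 4.17% of the assembly genes fell, against 4.18% of all genes, as did 1 translation factor and 1 tRNA synthetase.

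A pair of larger gene groups gives the context of these changes. Of 78 tested nuclear genes for respiratory chain and ATP synthase subunits, whose partners the mitoribosome makes, 71 fell and 0 rose in KO_CM against regular_diff and 56 fell and 0 rose in KO_CM against WT_CM, with medians of -0.95 and -0.60. In WT_CM against regular_diff 37 of these 78 genes fell, or 47.4%, against 10.4% of the mitoribosomal members, with medians of -0.37 and -0.16. Of all genes, 17.3% were called lower in KO_CM against regular_diff, 13.9% in KO_CM against WT_CM and 4.18% in WT_CM against regular_diff. Against preadipocyte 72 of the 78 rose and 0 fell in regular_diff, and 26 rose and 1 fell in KO_CM. The shares of all genes called higher there were 24.8% in regular_diff and 12.1% in KO_CM. Of 77 tested proteins of the cytosolic ribosome 10 rose and 3 fell in KO_CM against regular_diff, with a median of 0.13, and 3 rose and 19 fell in regular_diff against preadipocyte, with a median of -0.08. With library size alone these counts were 22 and 1 in KO_CM against regular_diff and 2 and 28 in regular_diff against preadipocyte. In the main fit the cytosolic shares were 13% and 3.9%, against 17.2% and 17.3% of all genes, in KO_CM against regular_diff. In regular_diff against preadipocyte they were 3.9% and 24.7%, against 24.8% and 26.4%. The difference between these groups and the mitoribosomal members was not tested.

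**Figure D4:**
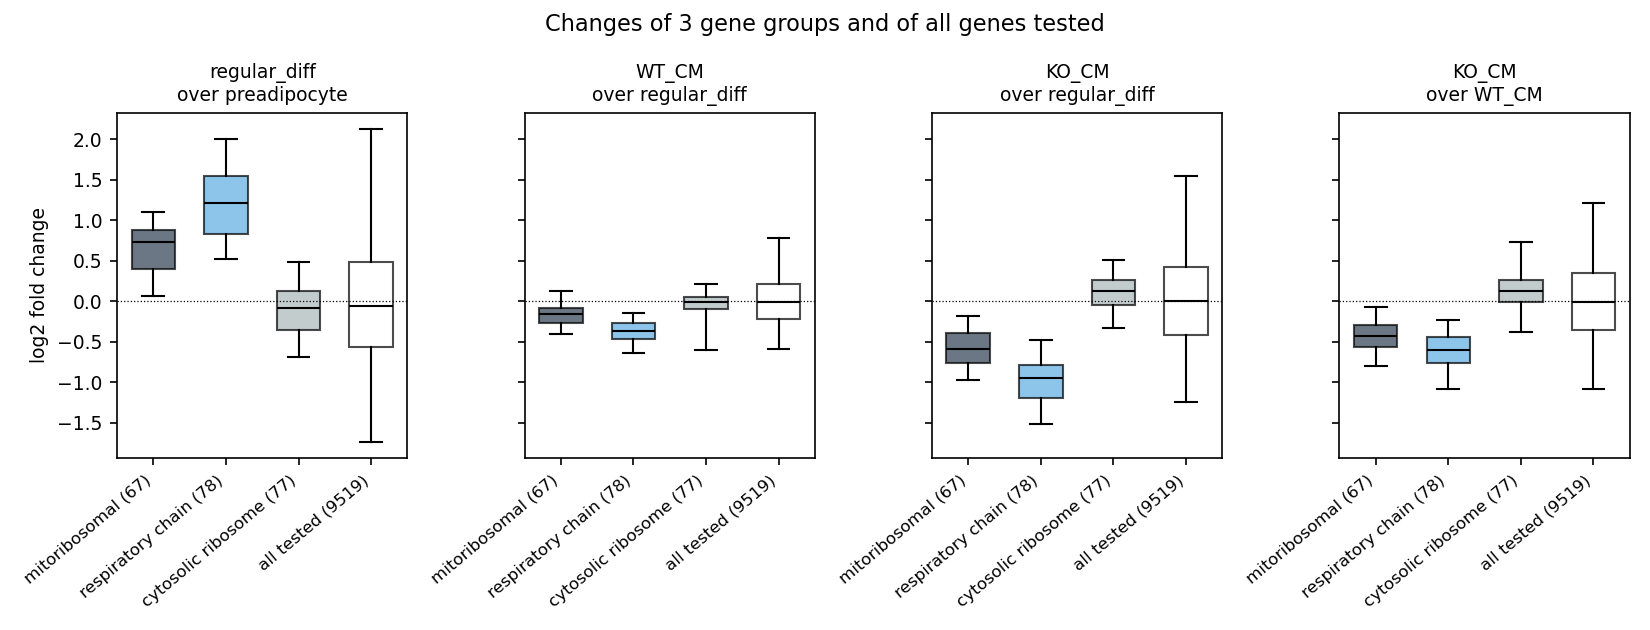
Log2 fold changes of 67 mitoribosomal, 78 respiratory chain, 77 cytosolic ribosomal and all 9519 tested genes in 4 comparisons, as boxes of median and quartiles with whiskers from the 5th to the 95th percentile. The mitoribosomal medians of 0.73 in regular_diff against preadipocyte and -0.59 in KO_CM against regular_diff lie between those of the respiratory chain (1.22 and -0.95) and those of the cytosolic ribosome (-0.08 and 0.13).

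The spread of the members between libraries of a group was uneven. The median coefficient of variation over the members was 13.0% in KO_CM, 7.77% in WT_CM, 7.26% in regular_diff and 11.7% in preadipocyte libraries, and it passed 50% in 8 members in KO_CM (up to 103% for Mrpl50), in 0 in WT_CM and regular_diff and in 5 in preadipocyte libraries. Mrps36 was at least 4-fold low in KO_CM replicate 3, and Mrpl23 at least 2-fold low in KO_CM replicate 2 and preadipocyte replicate 5. In KO_CM replicate 1 and preadipocyte replicate 5, Mrpl42, Mrpl47, Mrpl50 and Mrps33 were each at least 4-fold below the mean of the other libraries of their group, computed on CPM plus 0.5. These 4 of 67 members were chosen after their values were seen, and 56 of the 9519 tested genes (0.588%) did the same in both libraries. Mrpl42 had 7.86, 116 and 71.8 CPM in KO_CM libraries and 81.1, 6.84 and 94.0 CPM in preadipocyte libraries, against 97.7, 106 and 91.0 CPM in WT_CM libraries and 120.3, 118 and 136 CPM in regular_diff libraries. One library of each of the first pair of groups was thus at 7.86 and 6.84 CPM, where the remaining libraries lay between 71.8 and 136 CPM. KO_CM replicate 1 had 258 such low genes in all and preadipocyte replicate 5 had 99, against 9 to 85 in the other 10 libraries.

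**Figure D5:**
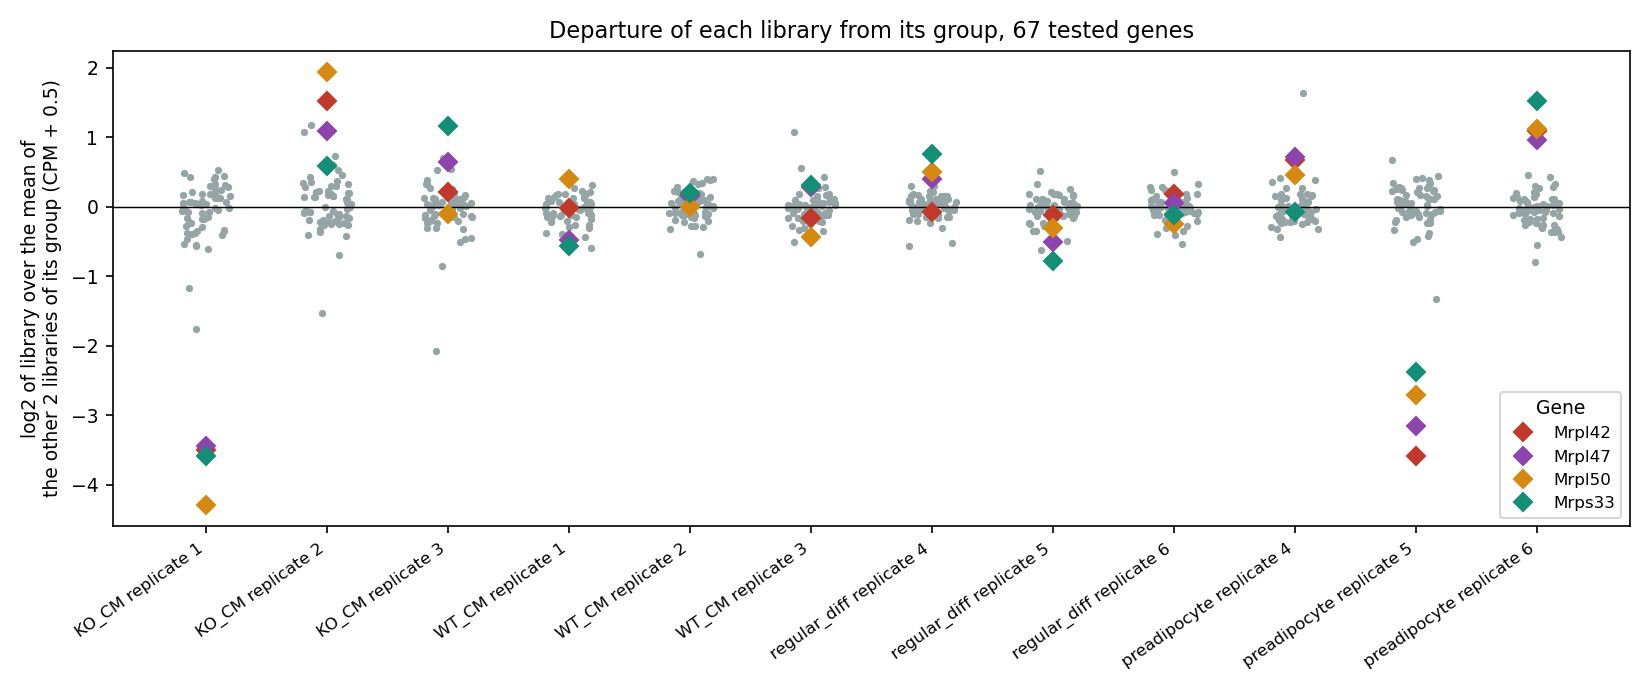
Log2 ratio of each library to the mean of the other 2 libraries of its group (CPM + 0.5) for the 67 tested members, 1 point per gene and library, with Mrpl42, Mrpl47, Mrpl50 and Mrps33 coloured. The coloured genes lie more than 2 log2 units below the rest of their group in KO_CM replicate 1 and preadipocyte replicate 5, while the median departure of the members is -0.01 and 0.03 in those libraries.

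With both libraries left out, 52 members rose and 1 fell in regular_diff against preadipocyte, 45 fell and 0 rose in KO_CM against regular_diff, 32 fell and 0 rose in KO_CM against WT_CM, and 15 fell and 1 rose in WT_CM against regular_diff (edgeR's quasi-likelihood test). Of all 9778 genes tested in this fit, 2524 rose in the first of these comparisons, and 1678 and 1337 fell in the next ones. In WT_CM against regular_diff 693 fell and 752 rose, against 398 and 545 of 9519 with all 12 libraries. Against preadipocyte 46 members rose and 1 fell in WT_CM (2400 and 2478 of all genes), and 6 rose and 0 fell in KO_CM (1202 and 737 of all genes). Of these last 6, 3 (Mrpl12, Mrpl34 and Mrps18a) were also called with all 12 libraries, and Mrpl14, Mrpl30 and Mrps21, named after their values were seen, were not. Without these libraries Mrpl42 rose in regular_diff against preadipocyte by 0.52 ± 0.13 on the log2 scale (adjusted p = 0.000843, edgeR's quasi-likelihood test). Mrps33 was the 1 member called lower in regular_diff than in preadipocyte, with -0.97 ± 0.28 (adjusted p = 0.00306, edgeR's quasi-likelihood test), where all 12 libraries gave -0.55 ± 0.68 (adjusted p = 0.543). Mrpl42 and Mrps33 are among the members whose low values singled out the libraries left out. Their p-values here do not allow for that choice. Mrpl52 was the 1 member called higher in WT_CM than in regular_diff, with 0.28 ± 0.09 (adjusted p = 0.0259, edgeR's quasi-likelihood test), where all 12 libraries gave 0.27 ± 0.12 (adjusted p = 0.161).

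The 71 genes lie on 17 chromosomes, and all are annotated as protein-coding. In 19 of them over 10% of the last 500 bases, read in stretches of 31 bases, also occur in another gene, 3 overlap another gene on the same strand and 8 overlap one on the opposite strand. The counts of these 19 are uncertain: Mrpl18, Mrpl20, Mrpl21, Mrpl22, Mrpl23, Mrpl27, Mrpl30, Mrpl33, Mrpl42, Mrpl43, Mrpl45, Mrpl51, Mrpl53, Mrps10, Mrps18b, Mrps18c, Mrps21, Mrps33 and Mrps36. Mrps34 is among both kinds of overlap, with Nme3 and Mapk8ip3, Mrpl12 overlaps Gm16755 on the opposite strand and Mrpl51 holds Mir3098, and the strand setting of the counting, without which reads of overlapping genes cannot be told apart, is not given in the sources used here. Over the 43 tested members with none of these features, 31 rose in regular_diff against preadipocyte, 29 fell in KO_CM against regular_diff, 22 fell in KO_CM against WT_CM and 4 fell in WT_CM against regular_diff, with none the other way. The shares are 72.1%, 67.4%, 51.2% and 9.3%, against 24.8%, 17.3%, 13.9% and 4.18% of all tested genes called in the same direction.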

How the data were processed

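Per the submitters' processing notes, reads were handled with cutadapt, HTSeq and DESeq2 on mm10. Tool versions, settings and gene models: not given in the sources used here. Per the labels, 30 ng of RNA per sample was prepared by MARS-seq. The authors deposited 1 table of 11035 genes whose counts are whole UMI counts, not normalized. It also holds log2 fold changes and p-values of the authors' own comparisons, as deposited; from these only the numbers of members under 0.05 are given. Another 24 columns of values per library were not used.

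For the tests, counts of all 12 libraries entered 1 quasi-likelihood fit (edgeR 4.0.16, R 4.3.3, robust option) with a mean for each of the 4 groups, after filterByExpr by group and TMM scaling. P-values were two-sided, with Benjamini-Hochberg adjustment across the 9519 genes that passed the filter. CPM are counts over TMM-scaled library sizes, and fold changes use the default prior count of the fit. Each SE is the size of the log2 fold change divided by the square root of the F statistic of its test. A prior count of 2 was used only for log2 CPM, as in the correlations between libraries. The common biological coefficient of variation was 0.126. Groups were taken from the sample titles. The fit was tested on simulated data.

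The members and all gene lists (subunits, mitoribosomal proteins under other names, assembly, translation factors, tRNA synthetases, mitochondrial DNA and transcription, biogenesis regulators, respiratory chain, cytosolic ribosome, markers) were chosen with earlier results of these data known. Named by rule were a fixed set of members, the 6 largest called rises and falls per comparison with a mean of 10 CPM or more, and no more than 3 called genes per other list and comparison; not every gene under the rule is named, which was settled after the values were seen. Marker lists for epithelial cells (3 of 7 genes in the table, summing to at most 52.8 CPM in any library, with Epcam, Krt5, Cdh1 and Cldn4 not among them) and leukocytes (3 of 8, at most 47.5 CPM) were examined too; none of 3 endothelial markers was in the table.

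Coordinates are from GENCODE vM21 (GRCm38), with 71 of 71 members matched, and promoters from RefSeq (GRCm38.p6). The last 500 bases of each gene were searched in other genes in stretches of 31 bases, every 10 bases. The alternatives tried comprised other scalings and filters, DESeq2 1.42.0, no robust fit, only the 6 libraries compared, thinning to the smallest total, cytosolic ribosomal protein genes left out, preadipocyte replicate 5 and KO_CM replicate 1 left out together, a replicate block and each library left out. Figures were drawn with Python 3.11.15 and matplotlib 3.10.9.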

Additional observations from a re-analysis of the deposited data

How the results depend on the processing

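The direction of the called members was kept in nearly all analyses. Over all alternatives the members called higher in regular_diff against preadipocyte numbered 42 to 52, those lower in KO_CM against regular_diff 40 to 46, and those lower in KO_CM against WT_CM 24 to 37. With DESeq2 the counts were 46 higher in regular_diff against preadipocyte, 43 lower in KO_CM against regular_diff, 28 lower in KO_CM against WT_CM and 6 lower in WT_CM against regular_diff. With each library left out in turn, 43 to 50 were higher and 0 to 1 lower in regular_diff against preadipocyte, 41 to 46 lower in KO_CM against regular_diff, 24 to 37 lower in KO_CM against WT_CM (24 without WT_CM replicate 2), 2 to 12 lower in WT_CM against regular_diff, 36 to 45 higher in WT_CM against preadipocyte and 3 to 6 higher in KO_CM against preadipocyte. In WT_CM against regular_diff 228 to 531 of all genes were lower over these fits. With library size alone 1 member was lower in regular_diff against preadipocyte, 2 were higher and 1 lower in KO_CM against preadipocyte, and the median of that last comparison turned to -0.028; this scaling moved the median of all genes in regular_diff against preadipocyte to -0.216, with 1905 genes called higher and 3221 lower, against 2364 and 2510. Upper quartile scaling also gave 1 lower in regular_diff against preadipocyte. Fits of only the 6 libraries compared gave 1 higher and 14 lower in WT_CM against regular_diff and 2 higher in KO_CM against preadipocyte. In these fits 782 of 8946 genes were higher and 698 lower in the first comparison, and 867 of 8656 higher in the second. Thinning to the smallest total gave 2 higher in KO_CM against preadipocyte, and turned the log2 fold changes of Mrps18c in regular_diff against preadipocyte to 0.14 and of Mrpl58 in WT_CM against regular_diff to 0.04. With single libraries left out the value of Mrpl44 in WT_CM against regular_diff ranged between -0.015 (without WT_CM replicate 2) and 0.05 (without WT_CM replicate 3). Leaving out preadipocyte replicate 5 and KO_CM replicate 1 gave 1 lower in regular_diff against preadipocyte, 1 higher and 15 lower in WT_CM against regular_diff, and 1 lower in WT_CM against preadipocyte. Of all 9778 genes in that fit 752 were higher and 693 lower in WT_CM against regular_diff. The cause of these changes was not tested. Of 3597 alternative values of 155 results for single genes, 3300 kept their direction and side of the threshold, 276 lost a call, 18 gained one and 3 turned.

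Deviations from the group mean over all genes were correlated between same-numbered libraries at -0.01, 0.121 and 0.065 for regular_diff and preadipocyte. For KO_CM and WT_CM the values were -0.041, 0.036 and -0.054. Libraries with different numbers gave -0.109 to 0.083 and -0.042 to 0.077 in these pairs of groups. With 3 libraries a group, such values cannot show whether same-numbered libraries were handled together. With the replicate number as a block, 47 members were higher and 0 lower in regular_diff against preadipocyte, and 34 lower and 0 higher in KO_CM against WT_CM. No paired analysis was possible for the other comparisons because their groups share no replicate numbers. The lower totals of KO_CM libraries limit what can be seen there for members with few counts.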
